A study of Mus musculus with 9 samples.

Results

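The genes followed here remodel the extracellular matrix: the matrix metalloproteinases Mmp2, Mmp12, Mmp14 and Mmp19, the tissue inhibitors of metalloproteinases Timp1, Timp2 and Timp3, and the lysyl oxidases Lox, Loxl1 and Loxl2. They were chosen by name and found by symbol in the deposited table, where all 10 are present among 55401 genes. The tissue was mouse brain from around a cortical infarct, taken at day 28, and every mouse was wild type (WT in the labels). Sham-operated mice were given ultrapure water, mice with photothrombosis (PT), a stroke made by illuminating the cortex in the presence of a photosensitive dye, were given the same water, and further PT mice were given Pushen, a commercial drug preparation, by gavage from the day after surgery. Each group held 3 libraries. The Pushen libraries carry doses of 391, 392 and 393 mg/kg in the labels and were treated as 1 group. The labels used here name no strain, age or sex, and do not say that the 3 libraries of a group are 3 animals; the p-values therefore reflect the spread between libraries, and part of it may be technical.

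Matrix metalloproteinases are zinc enzymes that cut collagens and other proteins of the extracellular matrix, and TIMPs bind to their catalytic site and block it. Lysyl oxidases act on newly made matrix: they oxidise lysines of collagen and elastin, which then form cross-links between the chains. After brain injury these enzymes take part both in opening the vessel wall and in building the scar that fibroblasts, glia and macrophages form around the lesion.

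The counts summed to between 57437342 and 75100133 per library. A mean of 0.5 FPKM or more over the 9 libraries (fragments scaled to gene length and library size, a level per length) was required for testing; 16740 genes met it, and the 10 genes were among them. Of these 10, Mmp12, Mmp19, Lox, Loxl1 and Loxl2 lay below that level in sham and entered the test through the infarct libraries. In bulk tissue, fewer cells of a type and less RNA per cell cannot be told apart. One protocol text among the labels mentions retinas; 11 of 12 photoreceptor genes lay below the filter, while the 10 neuronal markers summed to between 762 and 1298 FPKM. Choroid plexus markers stood apart in PT library 1 and Pushen library 2, at summed levels of 554 and 636 FPKM against at most 153 in the other libraries. Results are therefore also given without these 2 libraries.

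The first comparison, PT against sham, asks what differed around the infarct. Each of the 10 genes was higher in PT with an adjusted p under 0.05 (edgeR's quasi-likelihood test, Benjamini-Hochberg adjustment over all tested genes). Over all tested genes 30.9% passed, and 19.1% passed as higher. The PT libraries lay above every sham library for all 10 genes, as they did for 26.2% of tested genes. At least 2-fold higher and passing were 8 of the 10, against 9.85% of tested genes; the exceptions were Timp2 and Timp3. The median log2 fold change of the 10 was 3.57, and that of all tested genes was -0.0029. Mmp12, Mmp19, Lox, Loxl1 and Loxl2, all among the 8, had entered the test through the infarct libraries. The 10 genes were also chosen with results of these data known. These counts therefore describe them and are no independent evidence. Dropping PT library 1 and Pushen library 2, decided with the data in view, left all 10 past the threshold.

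Mmp14, a membrane-bound protease that also activates Mmp2, was the most abundant of the 4 proteases. It stood at 1.30, 1.17 and 1.60 FPKM in sham libraries 1, 2 and 3 and at 11.8, 11.3 and 7.87 FPKM in the PT libraries. The lowest PT library thus lay far above the highest sham library, and the fitted change was 2.86 ± 0.27 on the log2 scale (SE; adjusted p = 0.000461), a 7.27-fold rise. Mmp2, the gelatinase that cuts denatured and basement membrane collagen, was at 0.52, 0.37 and 0.65 FPKM in sham and 4.47, 5.38 and 2.94 FPKM in PT. Its groups did not overlap either, and it rose by 2.99 ± 0.43 (adjusted p = 0.00149).

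Mmp12, the elastase of macrophages, was nearly absent from sham tissue. Sham libraries 1 and 2 held no count and sham library 3 held 12, while the PT libraries held 1981, 2166 and 956, or 3.37, 3.49 and 1.80 FPKM. The fitted log2 change of 8.58 ± 0.87 (adjusted p = 0.000462) rests on these 12 counts and on the prior count of the fit: without sham library 3 it was 13.6. With sham libraries 1 and 2 set to a floor of 3 counts each, the PT mean was at least 262-fold above the sham mean. It was 130-fold above sham library 3 alone and at least 528-fold above the floor of the other two. Mmp19, a secreted protease of basement membrane components, was at 0.17, 0.11 and 0.09 FPKM in sham and 3.15, 2.99 and 2.0 FPKM in PT. It rose by 4.43 ± 0.54 (adjusted p = 0.000721), the largest log2 change of the 4 after Mmp12. The gene overlaps Tmem198b on the other strand, which averaged 2.19 FPKM in sham and 3.76 FPKM in PT. The sources used here do not state whether counting used strand, so reads of overlapping genes may be shared. Annotated genes also overlap Mmp12 (Mmp1b), Timp2 (Cep295nl), Lox (AC161119.1) and Loxl2 (Gm27177, Gm37513 and Mir6950), and Gm47093 overlaps Mmp19 as well.

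The 3 inhibitors moved by very different amounts. Timp1, the inducible inhibitor that reactive astrocytes, fibroblasts and macrophages release, was at 0.77, 0.83 and 0.90 FPKM in sham and 25.8, 20.7 and 13.3 FPKM in PT. That is a rise of 4.50 ± 0.46 on the log2 scale (adjusted p = 0.000467), 22.7-fold, and the sham libraries were nearly equal. The gene lies inside Syn1 on the other strand, a synaptic vesicle gene, whose level was 206 ± 7.77 FPKM in sham and 150 ± 17.5 FPKM in PT (SD, n = 3 each). Syn1 was thus lower in the group in which Timp1 was high.

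Timp2, which blocks Mmp2 and also helps Mmp14 to activate it, was already abundant in sham, at 47.5, 49.5 and 47.4 FPKM. It reached 87.5, 84.7 and 64.4 FPKM in PT, a rise of 0.65 ± 0.13 (adjusted p = 0.00656). Timp3, the inhibitor that binds to the matrix, was at 10.8, 9.44 and 10.7 FPKM in sham and 18.4, 15.1 and 16.2 FPKM in PT. The groups did not overlap and the rise was 0.62 ± 0.15 (adjusted p = 0.0152). Leaving out PT library 1 (0.54, adjusted p = 0.0507) or sham library 2 (0.56, adjusted p = 0.0591) ended the call of Timp3. In absolute terms Timp2 gained more than any of the other genes, 30.7 FPKM on average, against 19.1 for Timp1 and 6.23 for Timp3. The difference between the changes of Timp1, Timp2 and Timp3 was not tested.

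Timp1 and Mmp14 were the inhibitor and protease that gained the most fragments per kilobase among the genes that rose at least 2-fold. Mmp12 was the gene with the least sham signal. The upstream sequences of these 3 genes are shown. They come from RefSeq on GRCm38.p6 and read 5′ to 3′ up to the base before the RefSeq or the annotated gene start, whichever comes first, on the plus strand for all 3. Capitals mark matches to GGGCGG (the GC box) or CCAAT on either strand, which overlap in Mmp14.
Timp1, chrX:20869916-20870165: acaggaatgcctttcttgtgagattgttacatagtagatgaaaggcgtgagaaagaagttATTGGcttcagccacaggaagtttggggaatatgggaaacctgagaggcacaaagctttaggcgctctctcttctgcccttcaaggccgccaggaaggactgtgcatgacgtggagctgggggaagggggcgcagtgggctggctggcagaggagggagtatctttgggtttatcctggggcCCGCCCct
Mmp14, chr14:54431348-54431597: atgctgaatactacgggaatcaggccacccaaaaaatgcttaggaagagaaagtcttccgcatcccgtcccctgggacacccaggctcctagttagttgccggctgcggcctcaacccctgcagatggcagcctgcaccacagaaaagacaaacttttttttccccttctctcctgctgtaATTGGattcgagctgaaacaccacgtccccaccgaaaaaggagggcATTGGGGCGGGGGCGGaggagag
Mmp12, chr9:7344147-7344380: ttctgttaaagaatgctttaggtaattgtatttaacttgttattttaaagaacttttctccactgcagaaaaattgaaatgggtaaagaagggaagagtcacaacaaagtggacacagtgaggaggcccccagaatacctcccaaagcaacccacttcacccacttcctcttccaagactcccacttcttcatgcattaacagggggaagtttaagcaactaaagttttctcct
In the 250 bases before the RefSeq start, G and C made up 54.4% in Timp1, 55.2% in Mmp14 and 40% in Mmp12. The windows of Timp2 and Timp3, not shown, held 68% and 65.6%. A link between base composition and level was not tested. A GC box was found once in Timp1 and at 2 places in Mmp14, a motif held by 32.7% of all 32851 windows of this length; CCAAT was found at 1 and 2 places, against 33.8% of windows. The AP-1 motif TGANTCA, searched on both strands, was in none of the 3 windows, against 6.75% of all windows. It was found once before another RefSeq start of Mmp12, at base -44 from it, within the annotated gene. The TATA box TATAAA was in none of the 3, against 12.4% of windows. These matches are letters in a window and describe no binding. Of the 10 genes, Timp1, Timp2, Timp3, Mmp12 and Mmp14 had an entry in the promoter table.

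The cross-linking enzymes rose together. Lox, the founding lysyl oxidase, was at 0.20, 0.14 and 0.15 FPKM in sham and 3.12, 3.16 and 2.18 FPKM in PT, a change of 4.06 ± 0.38 (adjusted p = 0.000461), 16.7-fold. Loxl1, which acts on elastic fibres, was at 0.46, 0.32 and 0.32 FPKM in sham and 4.2, 4.53 and 2.98 FPKM in PT, a change of 3.35 ± 0.35 (adjusted p = 0.000489). Loxl2, which cross-links basement membrane collagen IV, was the least abundant of the 3, at 0.06, 0.08 and 0.09 FPKM in sham and 1.40, 1.12 and 0.81 FPKM in PT. It rose by 3.8 ± 0.56 (adjusted p = 0.00157). The lowest PT library exceeded the highest sham library 10.9-fold for Lox, 6.48-fold for Loxl1 and 9-fold for Loxl2.

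**Figure D1:**
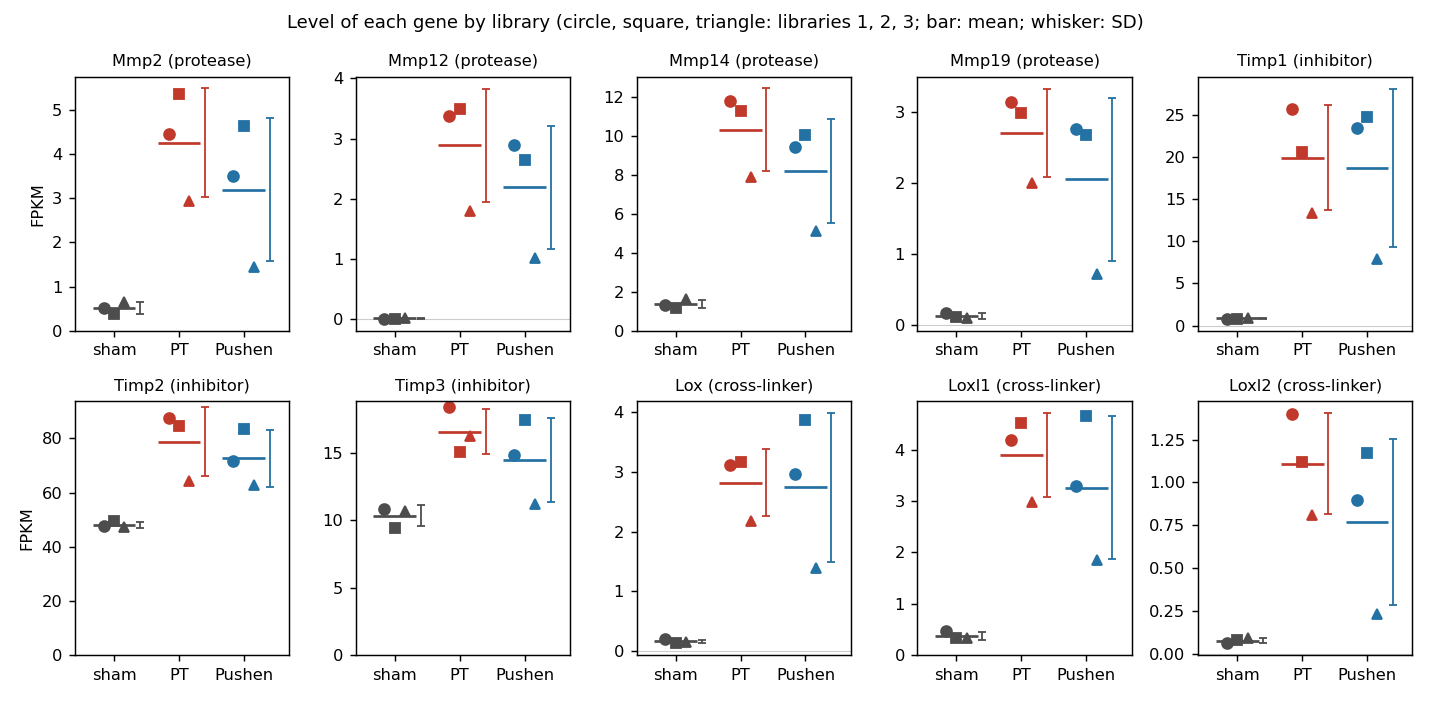
FPKM of each gene in the 9 libraries, with the y axis from 0; circles, squares and triangles are libraries 1, 2 and 3 of a group, bars are means and whiskers are SDs (n = 3). The sham points sit near the floor except for Timp2 and Timp3, and Pushen library 3 is the lowest infarct point in every panel.

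In sham tissue the order by level was Timp2 (48.1 ± 1.15 FPKM, SD, n = 3), Timp3 (10.3 ± 0.77), Mmp14 (1.36 ± 0.22), Timp1 (0.83 ± 0.07), Mmp2 (0.51 ± 0.14), Loxl1 (0.37 ± 0.08), Lox (0.16 ± 0.03), Mmp19 (0.12 ± 0.04), Loxl2 (0.08 ± 0.02) and Mmp12 (0.01 ± 0.01). The libraries of neighbouring genes overlapped for Mmp2 with Loxl1, Lox with Mmp19 and Mmp19 with Loxl2. In PT, Timp2 (78.9 ± 12.6) stayed first and Timp1 (19.9 ± 6.24) moved up behind it, where its libraries overlapped those of Timp3 (16.6 ± 1.66). Mmp14 (10.3 ± 2.14) stood apart from the genes above and below it. Mmp2, Loxl1, Mmp12, Lox and Mmp19 followed between 4.26 and 2.71 FPKM, each overlapping its neighbour, and Loxl2 (1.11 ± 0.30) was last and apart.

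The composition of the groups changed with these shifts. Summed over Mmp2, Mmp12, Mmp14 and Mmp19, protease transcripts were at 1.99, 1.65 and 2.36 FPKM in sham and 22.8, 23.1 and 14.6 FPKM in PT. Summed over Timp1, Timp2 and Timp3, inhibitor transcripts were at 59.1, 59.7 and 59.0 FPKM in sham and 132, 120 and 94.0 FPKM in PT. Per 100 FPKM of these inhibitors there were 3.38 ± 0.62 FPKM of the 4 proteases in sham, 17.4 ± 1.83 in PT and 14.3 ± 3.65 in Pushen (SD, n = 3 each). With no test made, every infarct library lay above every sham library on this ratio.

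That ratio depended on which proteases were summed. Over all 13 tested metalloproteinases and the 4 TIMPs it was 71.2, 79.1 and 75.4 in sham, 66.0, 86.9 and 89.8 in PT and 81.1, 80.8 and 69.8 in Pushen, so that the groups overlapped. The wider sum holds Mmp17, a membrane-anchored protease at 31.5 FPKM in sham and 24.8 in PT, which is the largest sham term, and Mmp3, at 0.07 in sham and 30.2 in PT. Timp1 made up 1.41% ± 0.11 of the Timp1, Timp2 and Timp3 sum in sham and 17.0% ± 2.7 in PT, while Timp2 went from 81.2% ± 1.41 to 68.5% ± 1.93. Mmp14 made up 68.0% ± 2.80 of the 4 proteases in sham and 51.5% ± 2.59 in PT.

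**Figure D2:**
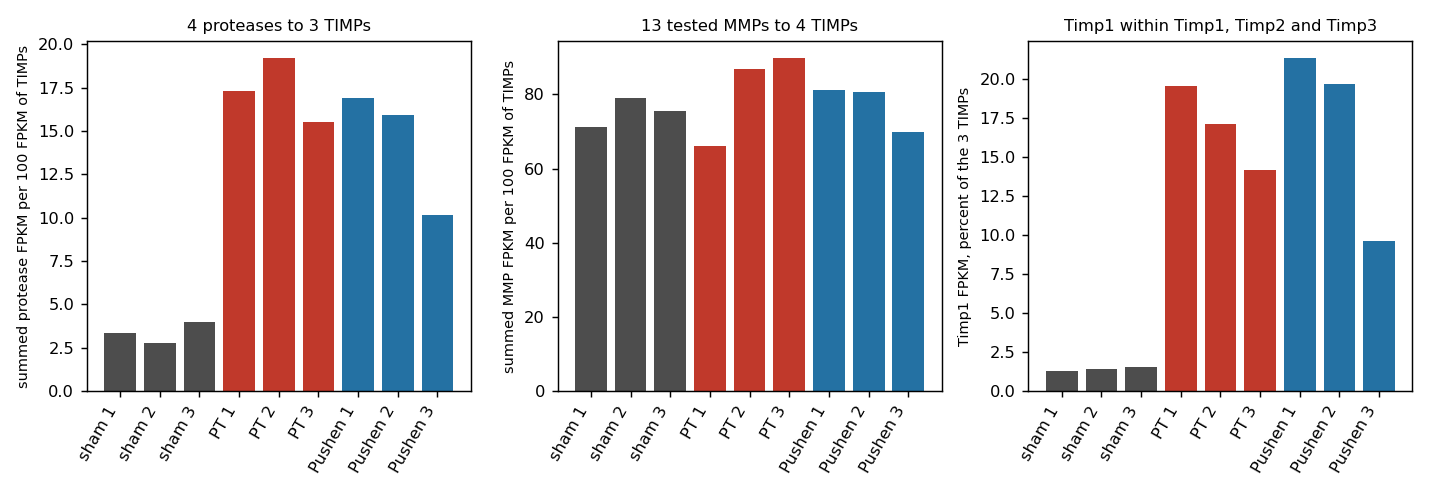
Bars give, for each library (grey sham, red PT, blue Pushen), the summed FPKM of the 4 proteases per 100 FPKM of 3 TIMPs, the same ratio for 13 tested metalloproteinases and 4 TIMPs, and the percentage of Timp1 in the sum of 3 TIMPs. The left and right panels separate sham from infarct libraries; in the middle panel the sham bars (71.2 to 79.1) lie within the range of the infarct bars (66.0 to 89.8).

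Within the infarct groups the same libraries were low for most of the 10 genes. In PT, library 3 was the lowest of the 3 for 9 of the 10 genes, by CPM (counts scaled to library size and composition); the exception was Timp3, lowest in PT library 2. Among the 1649 genes that rose at least 2-fold and passed, PT library 3 was the lowest in 75.1%, and among all tested genes in 35.7%. Pushen library 3 was the lowest of the 6 infarct libraries for all 10 genes, and it was so for 75.3% of those 1649 genes and 21.2% of all tested genes. The median of the 10 genes stood 3.8, 3.69 and 3.18 log2 units above the sham mean in PT libraries 1, 2 and 3. In Pushen libraries 1, 2 and 3 it stood at 3.29, 3.73 and 2.09.

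Some marker lists followed the same order of libraries and others did not. Markers are counted as higher or lower in PT if they passed, as 19.1% (higher) and 11.8% (lower) of all tested genes did. Fibroblast markers, of which 8 of 9 tested were higher in PT, summed to 33.1 to 36.2 FPKM in sham, 190, 142 and 109 in PT and 128, 157 and 76.6 in Pushen. Microglia and macrophage markers, 10 of 12 higher in PT, summed to 60.02 to 78.46 FPKM in sham, 983, 1033 and 822 in PT and 903, 1053 and 288 in Pushen. Astrocyte markers, 9 of 10 higher, ranged from 294 to 329 FPKM in sham, 664 to 1082 in PT and 556 to 843 in Pushen. Neuronal markers, 6 of 10 lower in PT, ranged from 1137 to 1298 FPKM in sham, 762 to 974 in PT and 849 to 1052 in Pushen. Endothelial markers, 9 of 10 higher, went from 66.9 to 67.6 FPKM in sham to 87.1 to 117 in PT, and pericyte and smooth muscle markers, 6 of 9 higher, from 37.1 to 40.7 to 56.0 to 72.7. Meningeal markers, 10 of 10 higher in PT, summed to 339 to 421 FPKM in sham, 948 to 1233 in PT and 917 to 1120 in Pushen, and oligodendrocyte markers, 8 of 10 higher, to 389 to 524, 541 to 1021 and 734 to 811. Striatal neuron markers, 3 of 10 higher, stood at 557 FPKM in PT library 1 and at 71.6 to 135 in the other 8 libraries. Pushen library 3 and PT library 3 were the lowest of their groups for fibroblast, macrophage, astrocyte, meningeal and endothelial markers. The endothelial sums of the Pushen libraries lay close together, between 90.2 and 91.7 FPKM. Pericyte and smooth muscle markers were lowest in PT library 2 and in Pushen library 3 (46.3 FPKM). Oligodendrocyte markers were lowest in PT library 3 and in Pushen library 2. Neuronal markers ran the other way, highest of their groups in PT library 3 (974 FPKM) and Pushen library 3 (1052 FPKM). No marker of these lists was at 0 FPKM in all libraries, and Dpt and Cnn1 lay below the filter. The part of cell numbers in the changes of the 10 genes was not tested.

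**Figure D3:**
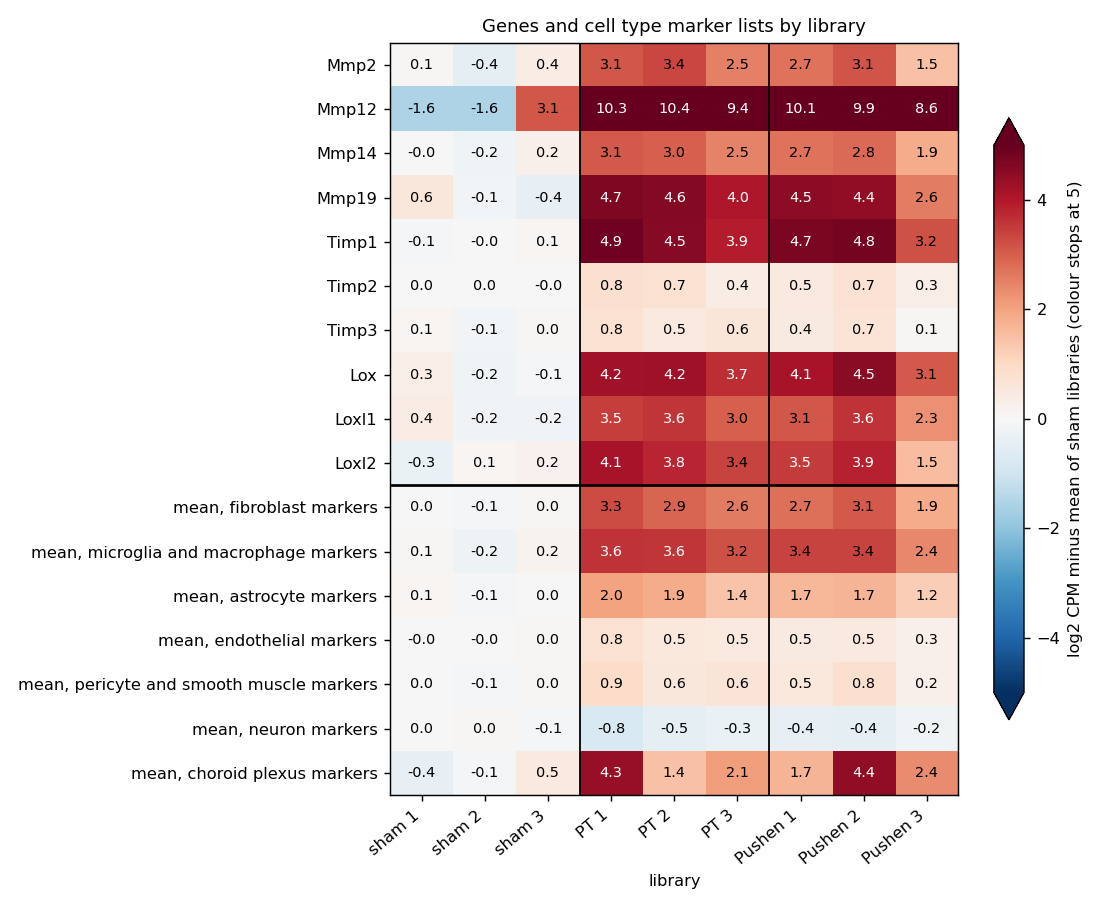
Each cell is the log2 CPM of a gene, or the mean of a marker list, in 1 library minus the mean of the sham libraries; colour stops at 5 and the numbers are printed in the cells. The 10 genes and the fibroblast and macrophage marker lists are weakest in Pushen 3 among the infarct columns, and PT 3 is the weakest PT column for all of these rows except Timp3; the row of Mmp12 is unsteady in sham because 2 of its 3 libraries hold no count.

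Pushen was compared with sham to see which transcripts stayed different under treatment; these values share the sham libraries with the comparison above. Of the 10 genes 9 were higher in Pushen with an adjusted p under 0.05, against 13.5% of tested genes (16.2% in either direction). Passing and at least 2-fold higher were 8, against 7.84% of tested genes. Mmp12, Mmp19, Lox, Loxl1 and Loxl2, all among these 8, entered the test through the infarct libraries. The genes were also chosen with results known, so these counts are again no independent evidence. The groups did not overlap for 9 of them, as for 23.1% of tested genes. Mmp12 was at 2.90, 2.65 and 1.01 FPKM in the Pushen libraries (8.17 ± 0.86 on the log2 scale, adjusted p = 0.000692), at least 197-fold above the sham mean with the same floor and 98.0-fold above sham library 3 alone. Mmp14 was at 9.42, 10.03 and 5.13 FPKM (2.52 ± 0.27, adjusted p = 0.000683), Mmp2 at 3.51, 4.65 and 1.44 (2.57 ± 0.43, adjusted p = 0.00422) and Mmp19 at 2.76, 2.68 and 0.72 (4.02 ± 0.53, adjusted p = 0.00148). In each of the 4, library 3 was the low one.

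Timp1 reached 23.5, 24.8 and 7.87 FPKM under Pushen (4.40 ± 0.46, adjusted p = 0.000664). Lox was at 2.96, 3.86 and 1.40 FPKM (4.01 ± 0.38, adjusted p = 0.000546), Loxl1 at 3.29, 4.65 and 1.85 (3.08 ± 0.34, adjusted p = 0.000796) and Loxl2 at 0.90, 1.17 and 0.23 (3.25 ± 0.55, adjusted p = 0.00447). Pushen library 2 was the highest of the 6 infarct libraries for Lox and Loxl1. Timp2, at 71.6, 83.6 and 62.7 FPKM, was higher than in sham by 0.53 ± 0.13 (adjusted p = 0.0264). It lost that call without any 1 of sham libraries 1, 2 and 3 or Pushen libraries 1 and 2 (adjusted p between 0.0716 and 0.0964), and without PT library 1 and Pushen library 2 together (adjusted p = 0.0642). Timp3, at 14.8, 17.4 and 11.2 FPKM, did not pass (0.42 ± 0.15, adjusted p = 0.0953) and overlapped sham. Without Pushen library 3 it passed, at 0.57 (adjusted p = 0.0138).

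**Figure D4:**
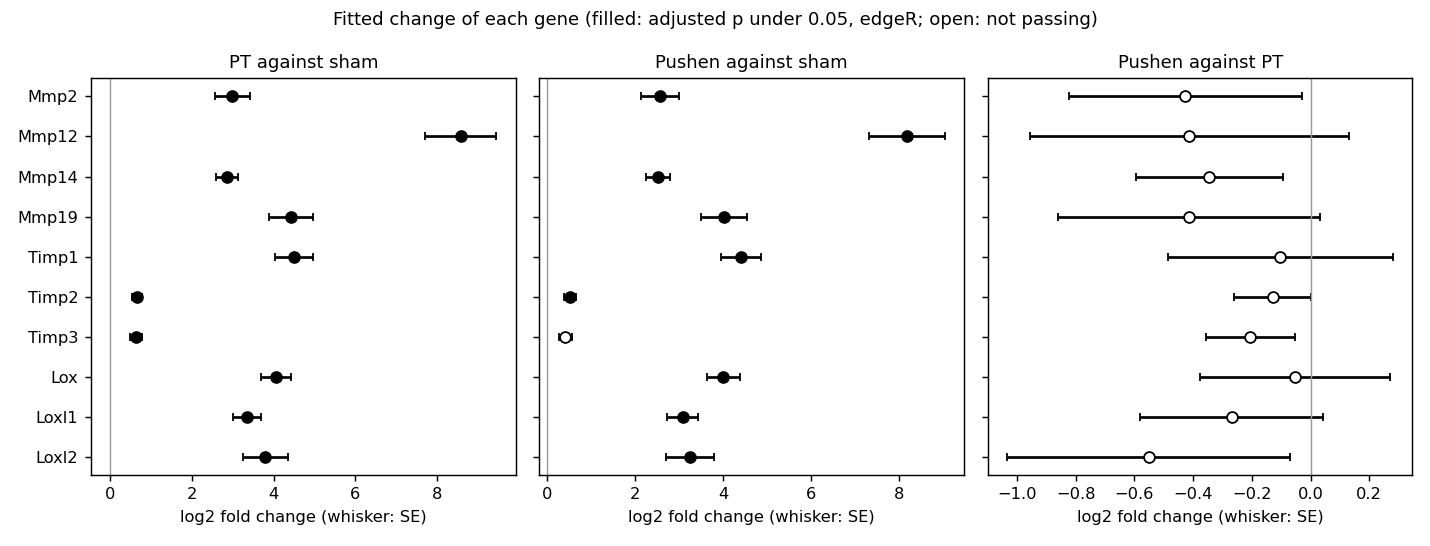
Fitted log2 fold change of each gene with its SE in the 3 comparisons; filled points have an adjusted p under 0.05 and each panel has its own x scale. Mmp12 lies farthest right in both comparisons with sham, Timp2 and Timp3 lie below 1, and in Pushen against PT all 10 points are open and left of 0.

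Pushen was compared with PT to ask whether treatment changed these transcripts. None of the 10 genes passed (adjusted p from 0.721 to 0.969), and neither did any other tested gene, a share of 0%. At an unadjusted p under 0.05 there were 1086 of the 16740 tested genes and none of the 10. DESeq2 called 49 of the 16740, none of them among the 10. At such small shares neither count sets the 10 apart. All 10 fitted changes lay below 0, as did 51.7% of all tested genes, between -0.55 ± 0.48 for Loxl2 and -0.05 ± 0.32 for Lox (median -0.31). The 95% intervals of the log2 difference were -0.91 to 0.22 for Mmp14, -0.97 to 0.77 for Timp1, -0.43 to 0.17 for Timp2, -0.55 to 0.14 for Timp3 and -0.78 to 0.68 for Lox. A reduction to below the PT level by 1.5-fold is inside the interval for Mmp14, Timp1 and Lox and outside it for Timp2 and Timp3. The rise of Timp2 and Timp3 in PT was itself only 1.57-fold and 1.54-fold, so a reduction of that size would undo most of it. Smaller losses of that rise are inside their intervals. For Mmp2 the interval was -1.32 to 0.47, for Mmp12 -1.64 to 0.82, for Mmp19 -1.43 to 0.60, for Loxl1 -0.97 to 0.44 and for Loxl2 -1.64 to 0.54.

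The common direction did not hold when single libraries were left out. Without Pushen library 3 the median of the 10 changes was -0.05, with 7 below 0 and 3 above it, and values between -0.12 and 0.26. Timp1 was then at 0.26 and Lox at 0.26 on the log2 scale, and Loxl1 at 0.0079. Without PT library 1, Timp1 (0.13) and Lox (0.026) were above 0, and without PT library 2 Lox was (0.032). No group of Pushen libraries lay wholly below or above the PT libraries for any of the 10 genes. Among tested genes this held for 6.25% (higher) and 5.97% (lower). At such small shares, none among 10 genes does not set them apart.

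Other genes of matrix turnover were read from 7 lists. In these counts a gene rose or fell if it passed, as 19.1% (higher) and 11.8% (lower) of all tested genes did. The filter used the mean of all 9 libraries, so genes low in sham could enter through the infarct libraries. Of those named below, Mmp3, Mmp11, Mmp13, Mmp23, A2m, Thbs1, Adam12, Plaur, Col3a1 and Lama1 averaged less than 0.5 FPKM in sham. Counts of rises therefore describe the lists and are no independent evidence. Of 19 further metalloproteinases 9 were tested, of which 5 rose and 2 fell in PT (median log2 fold change 0.90). Mmp3, the stromelysin that activates other metalloproteinases, rose from 0.07 ± 0.06 to 30.2 ± 6.85 FPKM (8.68 ± 0.93) and the collagenase Mmp13 from 0.01 ± 0.01 to 4.58 ± 1.04 FPKM (9.31 ± 1.07). Mmp11 (2.17 ± 0.40) and Mmp23 (1.35 ± 0.29) rose as well. The 2 that fell, named after their values were seen, were the membrane-type enzymes Mmp16 (-0.69 ± 0.18) and Mmp17 (-0.40 ± 0.13). Mmp9, the other gelatinase, averaged 0.49 FPKM over the 9 libraries and lay just under the filter, and Mmp1a, Mmp1b and Mmp20 were listed at 0.

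Of 6 tested genes among further TIMPs, lysyl oxidases and inhibitors 5 rose in PT and 0 fell (median 1.72). A2m, alpha-2-macroglobulin, which traps proteases of many classes, went from 0.17 ± 0.03 to 15.3 ± 5.76 FPKM (6.44 ± 0.47), and the thrombospondins Thbs1 (3.31 ± 0.44) and Thbs2 (1.60 ± 0.25) and the oxidase Loxl3 (1.84 ± 0.26) rose. ADAM and ADAMTS proteases rose in 10 of 18 tested cases and fell in 1 (median 0.37), with Adam8 at 2.63 ± 0.42, Adamts1 at 1.67 ± 0.27, Adam12 at 1.55 ± 0.29 and the procollagen peptidase Adamts2 at 1.33 ± 0.19. The 1 that fell was Adamts17 (-0.64 ± 0.16), named after its value was seen. In the plasminogen system, whose protease plasmin activates metalloproteinases, 6 of 8 rose and 0 fell (median 1.46). They included the activators Plau (1.86 ± 0.29) and Plat (1.06 ± 0.14) and the receptor Plaur (2.43 ± 0.45).

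Genes that make and mature collagen rose in 13 of 16 tested cases and fell in 0 (median 0.80). Serpinh1, the collagen chaperone, rose by 2.08 ± 0.15, Pcolce, which speeds procollagen cleavage, by 2.41 ± 0.25, the prolyl hydroxylase subunit P4ha3 by 2.41 ± 0.31 and the lysyl hydroxylase Plod1 by 1.46 ± 0.19. Fibrillar and elastic matrix genes rose in 13 of 14 cases and fell in 0 (median 1.5). This list holds collagens and elastin, on which lysyl oxidases act, and also other matrix proteins. Col3a1 was at 5.24 ± 0.48, Col1a1 at 4.43 ± 0.45, Col1a2 at 3.97 ± 0.42 and the elastic fibre protein Efemp2 at 1.43 ± 0.16. All 12 basement membrane genes rose (median 1.09), among them Lamb2 (1.37 ± 0.17), Lama1 (1.26 ± 0.18), Lamc1 (0.85 ± 0.12) and Hspg2 (1.70 ± 0.27). Adjusted p-values of the named genes of the 7 lists, other than Mmp16, Mmp17 and Adamts17, lay at 0.00935 or below. Since these genes were picked by their p in PT against sham, which shares its PT or sham libraries with the other comparisons, counts over them say nothing independent there. None of the 28 so picked passed in Pushen against PT.

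**Figure D5:**
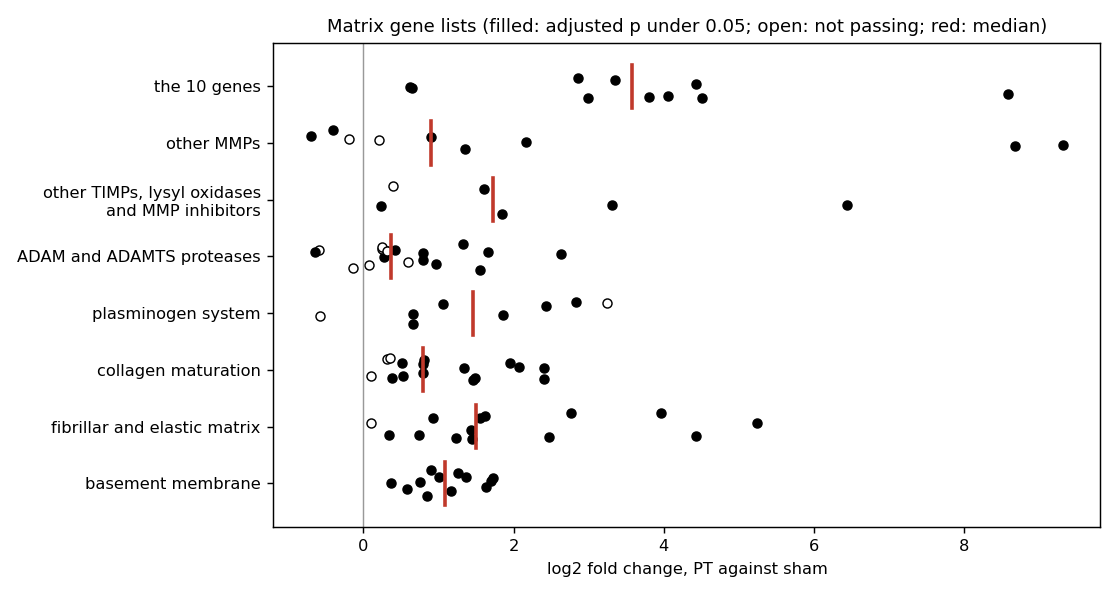
Log2 fold change in PT against sham of each tested gene, by list, with filled points for an adjusted p under 0.05 and a red bar at the list's median. The median of the 10 genes (3.57) lies to the right of the other medians (0.37 to 1.72), and Mmp3 and Mmp13 lie to the right of Mmp12.

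The genes whose profile over the 9 libraries was most like that of each of the 10 were found by the root mean square difference of log2 CPM, each profile centred on its own mean. Mmp14 was closest to Col5a2 (0.10 log2 units) and the myeloid transcription factor Irf8 (0.11). Lox was closest to Cd52, a leukocyte surface antigen (0.13), and to decorin, Dcn (0.14), and Loxl1 to Runx1 (0.12) and Cd53 (0.16). Mmp12 was closest to the integrin Itgax (0.19) and next to Mmp13 (0.58). In sham, Itgax averaged 0.013 FPKM and Mmp13 0.0067 FPKM, so the sham part of these profiles lies near the floor and depends on the prior count. Timp1 was closest to Bcl2a1b (0.16) and Sfrp4 (0.16). Mmp2 was closest to Tlr13 (0.20) and Mgst1 (0.21), Mmp19 to Gpx3 (0.21) and Lum (0.27), and Loxl2 to Itgb2 (0.21) and Col14a1 (0.23). The 2 inhibitors with small rises, Timp2 and Timp3, were closest to genes of equally small range: Surf4 (0.06) and Ech1 (0.07) for Timp2, and Fzd6 (0.07) and Mylk (0.07) for Timp3. Of the other 9 genes, the nearest to Mmp2 was Mmp14 and the nearest to Mmp14 was Mmp2 (0.23), Timp1 and Lox were nearest to each other (0.29), and so were Timp2 and Timp3 (0.16). The profiles share their 9 libraries and span the difference between sham and infarct.

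The positions given in the deposited table are those of GRCm38 for 94.2% of the gene identifiers shared with GENCODE M21; there Mmp2 lies on chromosome 8 (92827291 to 92853420), Mmp12 on chromosome 9 (7344381 to 7369499), Mmp14 on chromosome 14 (54431612 to 54441265) and Mmp19 on chromosome 10 (128790910 to 128800824), all on the plus strand. Timp1 lies on chromosome X (20870166 to 20874735, plus), Timp2 on chromosome 11 (118301069 to 118355740, minus) and Timp3 on chromosome 10 (86300372 to 86349506, plus) inside Syn3 on the other strand. Loxl1 lies on chromosome 9 (58287738 to 58313186, minus) and Loxl2 on chromosome 14 (69609068 to 69695834, plus). Of the 10 genes 9 have the same start and end in GENCODE M21, and Mmp14 ends at another base there.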

How the data were processed

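RNA of 9 libraries was sequenced after preparation with a TruSeq RNA kit, as the labels' protocols state. The table deposited by the authors holds raw read counts and FPKM, counts that the authors divided by gene length and library size; its counter, annotation and strand setting are not stated in the labels used here. Bowtie 0.12.2 and the build mm8 are listed, per the submitters' processing notes. The listed build conflicts with the table's positions, which are those of GRCm38 for 94.2% of shared gene identifiers. The 9 count and 9 FPKM columns carry the library names. Genes of at least 0.5 FPKM on average entered edgeR 4.0.16 (R 4.3.3): TMM scaling, 1 fit of all 3 groups, the quasi-likelihood test and Benjamini-Hochberg adjustment over 16740 genes. The SE was taken as log2 fold change over the root of F, and 95% intervals from the t distribution with the fit's 8.91 degrees of freedom. Log2 CPM used a prior count of 0.5. Libraries of a group differed beyond counting noise (chi-square per gene from 35.0 to 118), so none was a copy.

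The genes, the lists and the tests were chosen with earlier results of these data known. Named genes are the 10, the 4 of smallest p in each of 7 matrix lists, and the 2 of most like profile to each of the 10. Of the 28 list genes so chosen, 1 is not reported here by name. Tried as alternatives were DESeq2 1.42.0, limma 3.58.1 (voom, or trend on log2 FPKM with 0.1 or 1 added), other filters and scalings, fits of the compared groups, a replicate block and leaving out libraries; dropping PT library 1 with Pushen library 2 was added with the data in view. The fit was tested on simulated data. Figures were drawn with matplotlib 3.10.9.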

Additional observations from a re-analysis of the deposited data

How the results depend on the processing

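In PT against sham all 10 genes passed in 19 of 22 alternatives and 9 in the others; in Pushen against sham 8 to 10 passed, and in Pushen against PT 0 in each. Leaving out 1 library gave 9 to 10, 8 to 10 and 0. With a mean of at least 1 FPKM required, Loxl2 was not tested. Over all genes, leaving out 1 library gave 3198 to 5799 calls in PT against sham, 1538 to 3736 in Pushen against sham and 0 to 5 in Pushen against PT. In Pushen against PT, DESeq2 called 49, the fit of the compared groups 1, and the fit without PT library 1 and Pushen library 2 called 2. Libraries of equal replicate number did not deviate together over all tested genes (correlations from -0.23 to 0.07). With 3 libraries a group this cannot show whether they share an animal or batch, and the labels do not say that they do. With the replicate block 4266, 2108 and 0 genes and 10, 9 and 0 of the 10 were called. Directions turned in Pushen against PT alone, among changes that did not pass. With 1 library left out, ranges were -0.36 to 0.26 for Timp1, -0.38 to 0.26 for Lox, -0.61 to 0.0079 for Loxl1, -0.81 to 0.20 for Mmp3, -0.092 to 0.53 for Mmp11, -0.75 to 0.28 for Mmp13, -0.35 to 0.049 for Loxl3, -0.40 to 0.11 for Thbs2, -0.62 to 0.12 for Adam8, -0.34 to 0.10 for Adam12, -0.15 to 0.11 for Plat, -0.52 to 0.070 for Plaur, -0.44 to 0.046 for Pcolce, -0.22 to 0.055 for Lama1 and -0.18 to 0.017 for Lamc1. Without PT library 1 and Pushen library 2, Mmp11 was at -0.12. With 1 added to FPKM, Loxl2 in Pushen against sham had an adjusted p of 0.0553 (limma). The cause of these differences was not tested.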
